A study of Mus musculus with 6 samples.

Results

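The 10 genes described here encode the Alk1 receptor complex of endothelial cells (ECs) and the genes that respond to it, and they were followed through single-cell RNA-seq (scRNA-seq) data from mouse dorsal skin. They were chosen by symbol from the 32285 genes counted, and all 10 have a row in every library. UMIs, the tags that mark single captured mRNA molecules, were summed for each gene over the cells of a library that held 200 to 5000 genes and under 10% mitochondrial UMIs, and again over each cell population named from marker genes. Cells were tdTomato+ and sorted by FACS after tamoxifen had been given at postnatal day (PD) 17 to mice carrying Cdh5-CreERT2, a Cre driven by the VE-cadherin promoter, so that every mouse of the study received the same inducer at 200 µg/g and carries the same Cre. WT telogen mice (PD20, 3 days after tamoxifen) and WT anagen mice (PD32, 15 days after) had the genotype tdTomato;Cdh5-CreERT2;Krt14-H2BGFP on a mixed C57BL/6;CD1 background. Alk1 KO telogen mice (PD25, 8 days after) were Alk1 flox/flox;tdTomato;Cdh5-CreERT2 on C57BL/6. Each group has 2 mice and 2 libraries, called S1 and S2. The KO libraries were made for an earlier study by the same group, and a genotype field of their labels reads wild type, while their titles and remaining labels name the knockout. The KO therefore differs from WT telogen in age, days after tamoxifen, strain, the Krt14-H2BGFP allele and library run as well as in Alk1, and these cannot be told apart.

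Alk1 is a type I receptor serine/threonine kinase of the TGF-β superfamily that ECs use to sense the circulating ligands BMP9 and BMP10. It signals together with the type II receptor Bmpr2 and the coreceptor endoglin, and the activated complex phosphorylates Smad1, Smad5 and Smad9, which enter the nucleus with Smad4. Among the best known targets are the Id genes and the inhibitory Smads, which feed back on the pathway, and inherited loss of Alk1, endoglin or Smad4 in people causes arteriovenous malformations.

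On the mm10 build the receptor genes are Acvrl1, which encodes Alk1 (chr15:101128522-101145336, plus strand), Eng, which encodes endoglin (chr2:32646595-32682669, plus strand), and Bmpr2 (chr1:59763400-59879014, plus strand). The signal transducers are Smad9 (chr3:54755582-54801257, plus strand), Smad6 (chr9:63953076-64022059, minus strand) and Smad7, of which the last 2 inhibit the pathway. Id1 (chr2:152736251-152737410, plus strand), Id2 (chr12:25093799-25097140, minus strand) and Id3 (chr4:136143497-136145755, plus strand) encode helix-loop-helix proteins that bind other such proteins and keep them off DNA. Tmem100 (chr11:90030348-90036508, plus strand) encodes a membrane protein that ECs induce through Alk1.

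Promoter windows, from 250 bases before to 50 bases after the transcription start, were found in the RefSeq table of build GRCm38.p6 for 6 of the 10 genes. Windows are shown for 4 genes whose levels differed between WT and KO capillaries: Smad6, which went from 0 UMIs to a measurable level in lymphatic capillaries, Id3 and Eng, which moved in opposite directions in blood and lymphatic capillaries, and Bmpr2, which was higher in both. They lie at chr9:64022010-64022309 (minus strand), chr4:136143572-136143871 (plus strand), chr2:32646345-32646644 (plus strand) and chr1:59764029-59764328 (plus strand). The start used is that of RefSeq. For Id3, Bmpr2 and Id2 it lies downstream of the start of the gene span given above, and the window lies inside that span. The bases before those 3 spans were therefore not searched. Capitals mark the Smad palindrome GTCTAGAC and the GC-rich Smad motif GGCGCC, each of which reads the same on both strands.
Smad6: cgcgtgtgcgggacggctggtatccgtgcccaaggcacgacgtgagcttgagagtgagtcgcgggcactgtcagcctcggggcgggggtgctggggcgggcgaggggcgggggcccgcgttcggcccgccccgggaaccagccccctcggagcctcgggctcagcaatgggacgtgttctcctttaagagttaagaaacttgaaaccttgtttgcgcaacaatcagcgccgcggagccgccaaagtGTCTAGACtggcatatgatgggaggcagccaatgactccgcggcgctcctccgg
Id3: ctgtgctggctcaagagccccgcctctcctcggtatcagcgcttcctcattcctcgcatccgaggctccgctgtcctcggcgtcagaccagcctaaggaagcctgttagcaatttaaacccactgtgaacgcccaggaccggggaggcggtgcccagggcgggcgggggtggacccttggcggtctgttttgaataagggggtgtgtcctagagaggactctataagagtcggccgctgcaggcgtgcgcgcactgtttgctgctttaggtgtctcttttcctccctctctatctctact
Eng: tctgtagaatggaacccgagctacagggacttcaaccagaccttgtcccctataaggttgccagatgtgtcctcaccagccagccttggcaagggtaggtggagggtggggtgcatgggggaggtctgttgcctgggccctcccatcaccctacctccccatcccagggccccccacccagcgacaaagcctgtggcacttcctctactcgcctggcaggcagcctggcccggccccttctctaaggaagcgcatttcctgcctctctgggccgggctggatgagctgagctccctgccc
Bmpr2: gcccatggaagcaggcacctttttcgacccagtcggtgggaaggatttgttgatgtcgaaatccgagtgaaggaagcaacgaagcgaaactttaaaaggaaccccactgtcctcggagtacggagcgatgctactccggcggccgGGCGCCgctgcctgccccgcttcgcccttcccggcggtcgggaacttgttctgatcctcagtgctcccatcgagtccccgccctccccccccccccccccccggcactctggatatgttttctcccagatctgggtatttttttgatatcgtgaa
The palindrome was present in the Smad6 window at bases 247 to 254, beginning 4 bases before the start site, and in none of the other 5 member windows. It was found in 70 of 32851 promoter windows (0.213%). The GC-rich motif was present in the windows of Bmpr2 (bases 146 to 151), Id2 and Smad9, and in 3898 windows overall (11.9%). Neither motif was found in the Id3 and Eng windows.

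The 6 libraries held between 10615358 UMIs (KO S1) and 43317677 UMIs (telogen S2) in 2283 to 6643 barcodes, and 1713 to 5106 cells per library were kept. The median kept cell held 4371 to 6935 UMIs. Between 17 and 37 barcodes of each library, counted before the filter on cells, also occurred in another library. Named populations numbered 11, of which 6 were endothelial: Artery, Vein, 2 blood capillary populations marked by Kdr or Rgcc (Cap-Kdr, Cap-Rgcc), collecting lymphatics (Lymph-Col) and lymphatic capillaries (Lymph-Cap). A name stands for cells that resemble that type by its markers. Although the cells were sorted for tdTomato, telogen S1 and S2 kept 908 and 1975 immune-like and 548 and 856 Cdh5+/Krt19+ cells. Blood ECs numbered 610 and 640 in telogen, 2408 and 3154 in anagen and 623 and 650 in the KO, and lymphatic ECs numbered 538 and 575, 767 and 575, and 686 and 836. Levels are given as CPM, the UMIs of a gene divided by all UMIs of the same population and library and scaled to 1e6. Because 3′ libraries tag transcripts at their ends, CPM are compared between populations and groups for 1 gene and not between genes.

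Acvrl1 itself was measured in every library. In blood ECs it stood at 212 and 185 CPM in telogen S1 and S2, 157 and 168 in anagen, and 164 and 155 in the KO. Both KO values lay below both telogen values, and they overlapped the anagen ones. The log2 difference between KO and telogen was −0.36 ± 0.13 (SE), with an adjusted p of 0.063, which missed the threshold. A 3′ tag is still counted on a transcript that has lost internal floxed exons, so this level does not check the deletion.

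In WT skin, the receptor genes were led by blood vessels. Averaged over the 4 WT libraries, Acvrl1 stood at 290 ± 20.7 CPM (SD, n = 4) in Artery, and its lowest arterial library was above the highest of any other population. Cap-Rgcc (153 ± 31.4), Cap-Kdr (142 ± 31.4) and Vein (111 ± 14.1) followed with overlapping ranges, then pericyte-like cells at 76.3 ± 39.8, which ranged from 18.2 to 108 CPM, Lymph-Cap at 69.1 ± 14.3 and Lymph-Col at 68.0 ± 12.4, whose ranges all overlapped. The lowest mean was that of the Cdh5+/Krt19+ cells, 19.3 ± 6.14 CPM.

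Eng had a different leading population. Vein was highest at 739 ± 39.4 CPM and clear of the next, Cap-Kdr at 552 ± 88.7, whose range overlapped those of Cap-Rgcc (476 ± 45.2) and Artery (473 ± 43.3). All 4 blood populations were clear of Lymph-Cap (220 ± 13.9), and Lymph-Col (116 ± 24.6) was clear of the fibroblast-like, Schwann-like, immune-like and Cdh5+/Krt19+ cells, which ranged from 36.0 down to 17.5 CPM. Bmpr2 had fewer clear steps between populations. Its means ran from 201 ± 33.5 in Vein and 195 ± 38.4 in Artery to 93.1 ± 8.58 in fibroblast-like cells with every neighbouring pair of ranges overlapping, and only the immune-like cells (41.6 ± 5.81) stood clear of the population above them.

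Among the targets, Id1 was led by Cap-Kdr at 740 ± 58.9 CPM and then Artery at 554 ± 26.7, each clear of every population below it. Pericyte-like cells held 387 ± 61.1, and their lowest library (304 CPM) was just under the highest of Lymph-Cap (305). Cap-Rgcc (244 ± 62.2), Lymph-Cap (229 ± 68.5), Lymph-Col (183 ± 67.0) and Vein (144 ± 29.0) came after them with overlapping ranges. The 2 blood capillary populations thus did not overlap for Id1, nor did they for Id3, at 1052 ± 110 CPM in Cap-Kdr and 191 ± 26.2 in Cap-Rgcc.

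Id3 was also high outside the endothelium, at 1221 ± 162 CPM in pericyte-like and 982 ± 295 in Cdh5+/Krt19+ cells, whose ranges overlapped that of Cap-Kdr. Id2 had its highest mean outside the endothelium, 819 ± 245 CPM in immune-like cells, clear of pericyte-like cells at 146 ± 95.5 and Artery at 137 ± 19.4. Its lowest means were those of Cap-Rgcc (31.4 ± 8.42) and Cdh5+/Krt19+ cells (29.8 ± 15.3).

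The inhibitory Smads were both highest in Artery. Smad6 stood at 59.4 ± 5.88 CPM there, clear of Cap-Kdr (21 ± 4.67), Cap-Rgcc (16.1 ± 5.35) and Vein (13.2 ± 0.812). In the lymphatic vessels it was at or near 0: the 4 WT libraries together held 2 Smad6 UMIs in Lymph-Cap and 0 in Lymph-Col. Smad7 stood at 206 ± 50.3 CPM in Artery and at 12.2 ± 3.8 in Lymph-Col and 9.19 ± 3.03 in Lymph-Cap, its 2 lowest means. Both were below every library of the other populations except Schwann-like cells, which began at 12.7 CPM. Tmem100 was highest in Artery (119 ± 43.5), overlapped there by Cdh5+/Krt19+ cells (99.6 ± 24.9), and was near 0 in Cap-Rgcc (0.807 ± 0.647). Smad9, the least detected of the 10, had a mean under 1 CPM in every WT population and passed no filter on low counts, so it was tested nowhere.

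**Figure D1:**
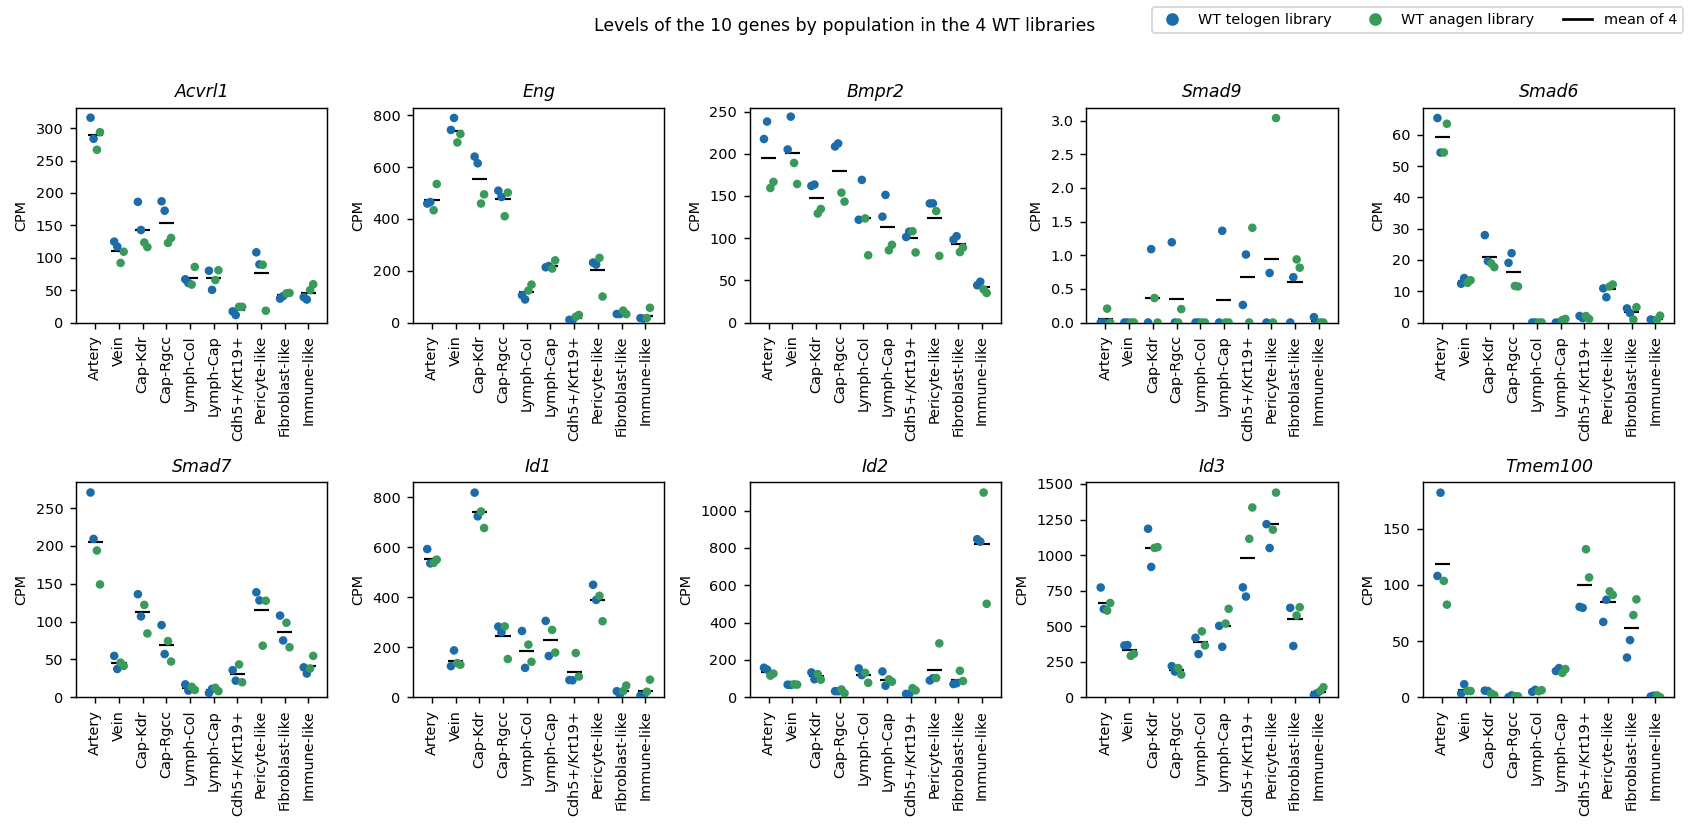
Level of each of the 10 genes (CPM, 1 panel per gene, linear axis from 0) in 10 populations of the 4 WT libraries. Points are libraries and black bars are means of 4. Acvrl1, Smad6 and Smad7 are highest in Artery, Eng in Vein and Id1 in Cap-Kdr, while Smad6 and Smad7 are lowest in the 2 lymphatic populations among the ECs.

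For Eng and Smad6, blood ECs were also ahead of lymphatic ECs in the share of single cells with a UMI. After every cell was thinned to 1500 UMIs, Eng was found in 53.6% of WT blood ECs, 19.0% of lymphatic ECs and 1.38% of Cdh5+/Krt19+ cells, beside 2.23% of immune-like cells, taken as a baseline in which free RNA and the cells' own transcripts cannot be told apart. Smad6 was found in 4.59% of WT blood ECs and in 0 of 2310 lymphatic ECs, which allows a share of up to 0.13%. The median depths before thinning were 5770, 4043, 5298 and 11740 UMIs in these 4 populations in the order blood, lymphatic, Cdh5+/Krt19+ and immune-like.

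Over 43 points, each a WT population in 1 library, and 8463 genes, the genes whose CPM ranked most like those of Acvrl1 were Adgrf5 (Spearman's rho 0.936), Ptprm (0.932), Adcy4 (0.9315), Cyyr1 (0.926) and Ptprb (0.917), and Eng had a rho of 0.887. For Id1 they were Hey1 (0.900), Rgs3 (0.898), Ier5l (0.891), Nrarp (0.880) and Tspan2 (0.871). Points of the same library share its depth and preparation, and these values are descriptions.

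Between telogen and anagen, no member gene was called changed in any endothelial population. A gene was called changed when its adjusted p was under 0.05 and its fold over 1.3, and anagen was set against telogen, the same 2 telogen libraries that serve the KO comparison. Of all genes tested, 0.00785% were called in blood ECs and 1.83% in lymphatic ECs, and none of the members was called by edgeR in either (2 of 9 members in blood ECs and 2 of 8 in lymphatic ECs had an unadjusted p under 0.05, and DESeq2 called 0). In the single EC populations the shares over all genes were 0.0104% in Cap-Kdr, 0.668% in Cap-Rgcc, 0.526% in Artery, 0.746% in Vein, 0.450% in Lymph-Cap and 1.43% in Lymph-Col, again with no member called (8 of 50 tests of a member had an unadjusted p under 0.05, and DESeq2 called 0). Id1 in Cap-Kdr is an example, at 818 and 724 CPM in telogen against 743 and 677 in anagen, with a log2 difference of −0.02 ± 0.16. These ranges overlapped. For Eng in blood ECs the difference was −0.02 ± 0.14, and for Id3 in Cap-Kdr it was 0.10 ± 0.18. No member's stage difference was called as unlike between blood and lymphatic ECs (4 of 9 had an unadjusted p under 0.05, and DESeq2 called 0), where 0.216% of all genes were.

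The Cdh5+/Krt19+ cells were the exception among the larger populations. There 0.627% of all genes and 3 of 8 members tested were called, all higher in anagen. Id2 went from 17.7 and 16.8 CPM in telogen to 48.4 and 36.3 in anagen, with no overlap (log2 difference 1.35 ± 0.21, adjusted p = 0.0381). Eng went from 10.4 and 8.08 to 22.1 and 29.3 CPM (1.58 ± 0.24, adjusted p = 0.0387), and Id3 from 773 and 708 to 1114 and 1335 (0.80 ± 0.12, adjusted p = 0.0387). Each of the 3 calls was lost when either telogen library was left out: the adjusted p became 0.162 without telogen S1 and 0.212 without telogen S2 for Eng, 0.244 and 0.212 for Id2, and 0.236 and 0.243 for Id3. The level of Eng in these cells was near that in immune-like cells, at 16.9 and 14.3 CPM in telogen and 17.3 and 56.8 in anagen, and the part of free RNA in its difference was not tested. In pericyte-like and immune-like cells 0% of genes were called, and in fibroblast-like cells 0.0542%, with no member among them (in these 3 populations 7 of 25 tests of a member had an unadjusted p under 0.05, and DESeq2 called 2, both in immune-like cells).

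In the KO, Id1, Id3 and Eng moved in opposite directions in blood and lymphatic ECs. Blood ECs had lower Id1, Id2, Id3, Eng and Tmem100 and higher Bmpr2 than WT telogen. Lymphatic ECs had higher Id1, Id3, Eng, Bmpr2, Smad6 and Smad7. Calls over all genes were frequent in both, at 32.1% in blood ECs, where 17.5% of genes were called lower, and at 25.3% in lymphatic ECs, where 12% were called higher. Against that background, 5 of 9 members tested in blood ECs were called lower and 1 higher, with a median log2 difference of −0.61 over the members and 0.02 over all genes. In lymphatic ECs 6 of 9 were called higher and none lower, with a median of 0.92 beside 0.03. Smad6 passed the filter on low counts there only through the KO libraries, so it had to differ, and without it the count is 5 of 8. In bulk sums such as these, fewer cells of a kind and less RNA per cell cannot be told apart, and the make-up of the sums differed: Lymph-Cap was 35.9% and 31.3% of lymphatic ECs in telogen and 59.2% and 60.2% in the KO.

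Id3 had the largest fall in blood ECs among the members called. Its level was 632 and 546 CPM in telogen, 587 and 483 in anagen and 330 and 311 in the KO, so that both KO libraries lay below all 4 WT ones (log2 difference from telogen −0.92 ± 0.14, adjusted p = 0.00102). Id1 was at 446 and 435, 469 and 340, and 249 and 257 CPM in the same order, again with no overlap (−0.84 ± 0.13, adjusted p = 0.00091). Eng, the coreceptor, fell from 584 and 596 to 387 and 401 CPM (−0.63 ± 0.13, adjusted p = 0.00473). These 3 calls were kept in every alternative tried.

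Id2 was at 103 and 93.4 CPM in telogen and 68.6 and 63.9 in the KO (−0.61 ± 0.13, adjusted p = 0.00667), and the call was lost without telogen S1 (adjusted p = 0.0632). Tmem100, at 37.3 and 62.9 CPM in telogen and 24.6 and 31.8 in the KO, was the least even between replicates (−0.87 ± 0.24, adjusted p = 0.0192). Its call was lost without telogen S2 and without KO S1, at log2 differences of −0.48 and −0.72. It was also lost with all 4 WT libraries as controls (−0.54, adjusted p = 0.191), and the anagen libraries, at 30.1 and 25.3 CPM, lay within the KO range. Bmpr2, the type II receptor, was higher in the KO, at 292 and 281 CPM against 201 and 218 (0.41 ± 0.13, adjusted p = 0.0334). That call was lost with DESeq2 (adjusted p = 0.0716). It was also lost without telogen S1, telogen S2 or KO S1, at log2 differences of 0.36, 0.44 and 0.36. Smad6 (0.51 ± 0.19) and Smad7 (−0.13 ± 0.16) did not pass the test in blood ECs as a whole.

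In lymphatic ECs Smad7 had the largest fitted difference of a member with UMIs in every library. It stood at 13.3 and 9.34 CPM in telogen, 13.3 and 8.99 in anagen and 57.8 and 61.6 in the KO, with the groups far apart (2.33 ± 0.20, adjusted p = 4.1e-05). Smad6 had 0 UMIs in both telogen libraries, 1 in each anagen library and 77 and 51 in the KO, which is at least 28.8-fold higher than 3 UMIs over both telogen libraries would be (adjusted p = 0.000341). Eng went from 140 and 126 CPM to 355 and 387 (1.42 ± 0.13, adjusted p = 5.13e-05), so that KO lymphatic ECs came close to the 387 and 401 CPM of KO blood ECs.

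Id3 stood at 445 and 318 CPM in telogen lymphatic ECs, 480 and 461 in anagen and 961 and 697 in the KO (1.06 ± 0.19, adjusted p = 0.00296). Bmpr2 stood at 123 and 164, 112 and 84.3, and 266 and 268 CPM (0.84 ± 0.15, adjusted p = 0.00231). Id1 was the most variable, at 278 and 131, 229 and 155, and 472 and 337 CPM (0.92 ± 0.29, adjusted p = 0.0391). Its call was kept in 8 of 13 alternatives. Among those that ended it were DESeq2 (adjusted p = 0.406) and leaving out telogen S2 or KO S1, at log2 differences of 0.47 and 0.64. The KO values of all 6 genes were nevertheless above all 4 WT values. Acvrl1 did not pass the test in lymphatic ECs, at 71.0 and 58.0 CPM in telogen and 68.8 and 47.9 in the KO.

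The difference between both responses was tested as an interaction of population and group. It was called for 7 of 9 members, against 18.9% of all genes tested. For Id3 the KO effect was lower in blood than in lymphatic ECs by −1.96 on the log2 scale (adjusted p = 1.35e-06), for Eng by −2.03 and for Smad7 by −2.45. Acvrl1 (−0.13) and Bmpr2 (−0.43) were not called. The calls of Id2 and Tmem100 were lost without telogen S2, at adjusted p of 0.0851 and 0.0977, and that of Tmem100 with DESeq2 at 0.0849.

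**Figure D2:**
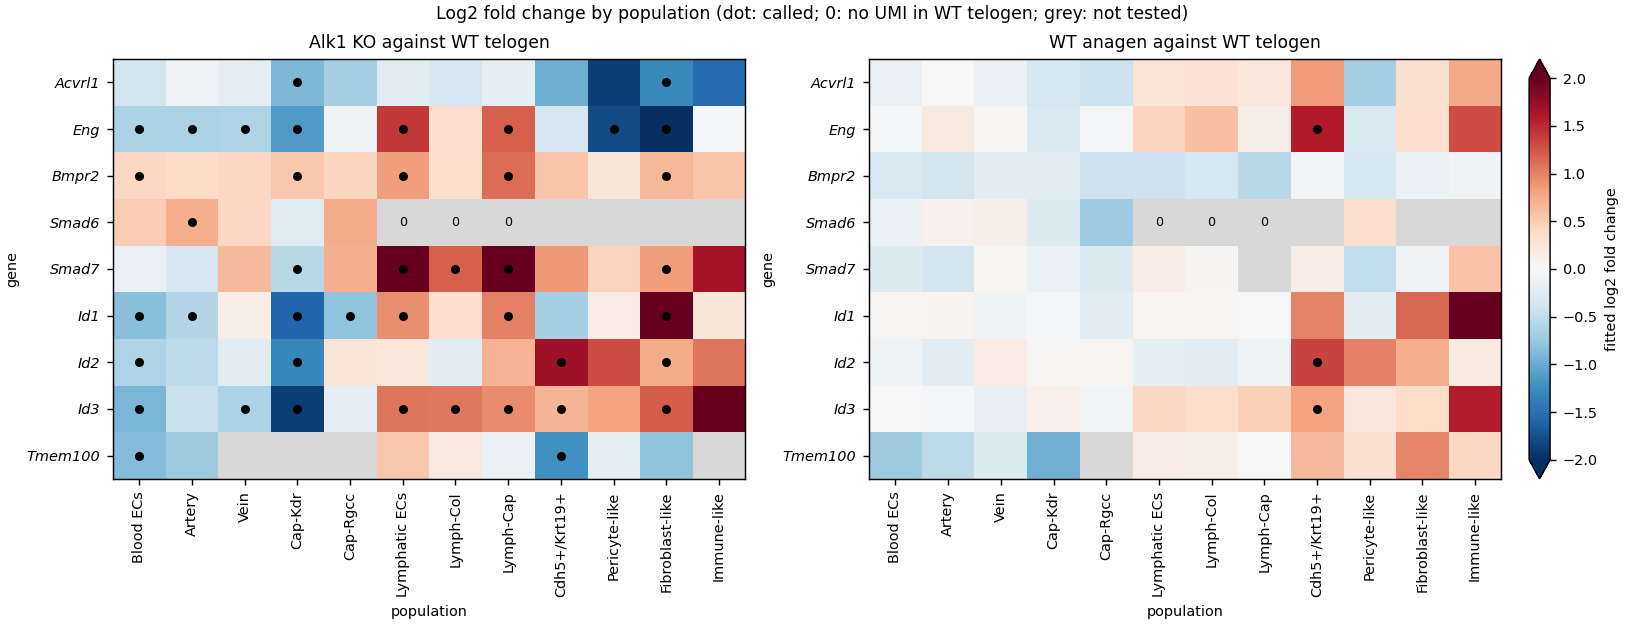
Log2 difference from WT telogen of 9 member genes (rows) in 12 populations (columns), for the KO and for anagen. Colour gives the difference, clipped at 2 in either direction, a dot marks a called gene, a 0 marks a gene without a UMI in WT telogen and grey marks genes not tested. In the KO Id1, Id3 and Eng are lower in Cap-Kdr and higher in Lymph-Cap, and in anagen dots appear only in Cdh5+/Krt19+ cells.

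Within blood ECs, the Cap-Kdr capillaries had the most members called. There 33.7% of all genes were called and 17.8% were called lower, and 6 of 8 members tested were lower and 1 higher (median −1.01 against −0.00 over all genes). Id3 fell from 1185 and 916 CPM in telogen to 328 and 305 in the KO, with anagen at 1051 and 1055 (−1.88 ± 0.19, adjusted p = 1.28e-05). Id1 stood at 818 and 724 CPM in telogen and 248 and 320 in the KO (−1.59 ± 0.19, adjusted p = 4.95e-05). Id2 was at 133 and 95.9 against 65.8 and 37.9 CPM (−1.30 ± 0.27, adjusted p = 0.00241). For each Id gene both KO libraries lay below all 4 WT libraries.

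The receptor genes of Cap-Kdr moved as well. Eng stood at 640 and 615 CPM in telogen, 459 and 495 in anagen and 305 and 330 in the KO (−1.13 ± 0.18, adjusted p = 0.000317). Acvrl1 stood at 186 and 143, 124 and 116, and 97.4 and 98.6 CPM (−0.90 ± 0.19, adjusted p = 0.00322). The anagen values of both genes lay between the other 2 groups. The call of Acvrl1 was lost without telogen S1 (−0.71, adjusted p = 0.0513). Bmpr2 was higher in the KO, at 295 and 231 CPM against 162 and 163 in telogen (0.54 ± 0.19, adjusted p = 0.0409). Its call was kept in 7 of 13 alternatives. Without telogen S1, telogen S2 or KO S1 it was lost, at log2 differences of 0.51, 0.55 and 0.34. It was also lost with DESeq2 (adjusted p = 0.195), stricter cell filters (0.0583) and a finer clustering (0.34, adjusted p = 0.198). Smad7 was at 136 and 107 CPM in telogen, 122 and 84.3 in anagen and 88.6 and 95.2 in the KO, so the KO overlapped anagen (−0.55 ± 0.19, adjusted p = 0.0415). This call was kept in only 4 of 13 alternatives. Without telogen S1, KO S1 or KO S2 it was lost, at log2 differences of −0.39, −0.52 and −0.59. It was also lost with DESeq2 (adjusted p = 0.374), stricter cell filters (0.116) and a finer clustering (−0.18, adjusted p = 0.585). The same held with all 6 libraries in 1 fit (0.0907), all 4 WT libraries as controls (0.0772) and no filter on low counts (0.0722). Smad6 did not pass the test in Cap-Kdr (−0.24).

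Counted per cell, Id3 was found in 204 of 305 telogen Cap-Kdr cells thinned to 1500 UMIs, or 66.9% (95% exact binomial interval 61.3 to 72.1), and in 80 of 364 KO cells, or 22.0% (17.8 to 26.6). Immune-like cells, the same baseline, stood at 3.39% (2.75 to 4.14) in telogen and 12.4% (7.91 to 18.1) in the KO. Shallower cells left out numbered 10 and 30 in Cap-Kdr and 143 and 16 in immune-like cells, whose median depths were 4722 and 3402, and 11980 and 7124 UMIs. Without thinning, the Cap-Kdr shares were 85.7% and 29.4%, and the immune-like ones 12.7% and 27.8%. The intervals cover counting error only.

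The lower levels were seen in both larger clusters of Cap-Kdr, 2 and 7. Cluster 2 met all 13 Cap-Kdr markers but cluster 7 only 3, so its name is weakly held. At the finer clustering a cluster led by Lrat and Apcdd1, as cluster 7 was, met 2 of them and stayed unnamed. In cluster 2 Id1 stood at 877 and 742 CPM in telogen, 863 and 826 in anagen and 222 and 333 in the KO, and in cluster 7 at 678 and 730, 604 and 600, and 291 and 330. Id3 in cluster 2 was at 1206 and 1034 CPM in telogen and 353 and 307 in the KO. Cluster 13, the smallest, made up 4.14% and 8.24% of Cap-Kdr cells in telogen and 10.9% and 14.9% in the KO. Values that moved with the group in Cap-Kdr were the summed level of the 13 markers of that population (15633 and 17185 CPM in telogen, 16932 and 11352 in anagen, 11559 and 10219 in the KO) and that of 25 immune genes (882 and 874, 709 and 618, 235 and 209). The 13 markers did not move alike. Kdr went from 938 and 931 CPM in telogen to 480 and 474 in the KO, Cxcl12 from 3051 and 2921 to 616 and 547 and Col15a1 from 395 and 534 to 26.6 and 14.9. Cd36, at 2051 and 2261 against 4047 and 2803, and Gpihbp1, at 1392 and 1962 against 2660 and 2904, were higher. The cells named Cap-Kdr may therefore not be alike in both groups, which was not tested. Haemoglobin and other red blood cell genes, 5 in all, were high in telogen S1 (6290 CPM) and KO S2 (9806) against 77.4 in telogen S2 and 68.3 in KO S1. The part of these 3 sets of genes in the result was not tested.

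The other blood populations had fewer calls. In Artery 17.1% of all genes and 3 of 9 members were called. Eng was lower there, at 459 and 465 CPM in telogen and 293 and 298 in the KO (−0.64 ± 0.14, adjusted p = 0.0105). The call was lost with stricter cell filters (−0.46, adjusted p = 0.0668) and without telogen S2, at a log2 difference of −0.64. Id1, at 593 and 535 against 429 and 320 CPM, was lower (−0.58 ± 0.17, adjusted p = 0.0373). Its call was lost with DESeq2 (adjusted p = 0.0509) and stricter cell filters (0.092). It was also lost without telogen S1 or KO S2, at log2 differences of −0.51 and −0.37. Smad6, at 65.4 and 54.3 against 118 and 81.1 CPM, was higher (0.73 ± 0.21, adjusted p = 0.0353). Its call was lost with DESeq2 (adjusted p = 0.248) and stricter cell filters (0.0624). Without telogen S2 or KO S1 it was lost as well, at log2 differences of 0.60 and 0.42.

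Artery held 2 clusters, and the larger of them was not the same in telogen S1 and in the KO. In cluster 1 Id1 was at 983 and 796 CPM in telogen and 417 and 385 in the KO, and Id3 at 1414 and 1074 and at 699 and 498, with no overlap for either. In cluster 4 Id1 was at 276 and 302 CPM in telogen and 444 and 250 in the KO, overlapping, while Id3, at 250 and 215 in telogen, 287 and 271 in anagen and 493 and 313 in the KO, and Id2, at 37.3 and 57.5 in telogen and 96.4 and 78.2 in the KO, were higher in both KO libraries. The clusters thus differed in direction for Id3, which was not tested. Smad6 had a higher mean in the KO than in telogen in both clusters, at 109 and 77.5 against 77.7 and 44.0 CPM in cluster 1, where the groups overlapped, and at 129 and 85 against 55.4 and 63.5 in cluster 4, where they did not.

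In Vein 21.2% of all genes and 2 of 8 members were called: Eng, at 743 and 790 against 460 and 556 CPM (−0.60 ± 0.16, adjusted p = 0.0176), and Id3, at 364 and 366 against 222 and 250 CPM (−0.64 ± 0.17, adjusted p = 0.0151). That share is close to the one over all genes. Both calls were lost without telogen S1 (0.0644 for Eng and 0.0864 for Id3), telogen S2 (0.0766 and 0.0593) or KO S1 (0.0712 and 0.0557). The 3 clusters of Vein did not move alike for Id3, which was at 592 and 530 CPM in telogen and 321 and 261 in the KO in cluster 8, and at 528 and 614 and at 132 and 320 in cluster 11. In cluster 9 it was at 57.1 and 47.2 CPM in telogen and higher, at 175 and 204, in the KO, as was Id1, at 40.8 and 21.2 against 92.8 and 118. The difference between these clusters was not tested. Tmem100 in Vein had 17 UMIs in telogen and 1 in the KO, a ratio of 0.0632 with a counting interval of 0.00151 to 0.403. In Cap-Rgcc 16.2% of all genes and 1 of 8 members were called, Id1 at 282 and 260 against 150 and 157 CPM (−0.81 ± 0.20, adjusted p = 0.0164), a call lost without telogen S1 (0.137), telogen S2 (0.0754) or KO S1 (0.065). It was also not called with DESeq2 (adjusted p = 0.0688), all 4 WT libraries as controls (0.0668), all 6 libraries in 1 fit (0.0741) or a finer clustering (0.101), and anagen, at 283 and 153 CPM, overlapped the KO. Eng in Cap-Rgcc was not called (−0.06 ± 0.21), at 509 and 484 against 475 and 470 CPM.

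Cap-Kdr was therefore set against Cap-Rgcc and against Artery in interaction tests chosen after the values had been seen. Against Cap-Rgcc, 4 of 8 members and 3.38% of all genes were called, and the KO effect was lower in Cap-Kdr for Id3 (−1.64), Id2 (−1.54), Smad7 (−1.26) and Eng (−1.03). Leaving out telogen S1 or telogen S2 ended the calls of Eng (adjusted p = 0.275 and 0.285), Id2 (0.397 and 0.0996) and Smad7 (0.0825 and 0.274), leaving out KO S2 that of Id2 (0.191), and a finer clustering those of Id3 (0.0654), Id2 (0.288) and Smad7 (0.333). Against Artery, 3 of 9 members and 8.44% of all genes were called, with Id3 at −1.37, Id1 at −0.96 and Acvrl1 at −0.76. The call of Id1 was lost without telogen S1 (0.0692) or telogen S2 (0.0552), and that of Acvrl1 without telogen S1 (0.292), telogen S2 (0.118) or KO S1 (0.12).

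Lymph-Cap gave the counterpart to Cap-Kdr. Of all genes 14.4% were called and 6.07% were called higher, and 6 of 9 members were called higher and none lower, or 5 of 8 without Smad6, which passed the filter only through the KO libraries (median 1.0 against 0.02 over all genes). Smad7 stood at 5.55 and 10.9 CPM in telogen, 12.3 and 7.96 in anagen and 71.6 and 81.9 in the KO (3.20 ± 0.30, adjusted p = 0.000197). Smad6 had 0 and 0 UMIs in telogen, 1 and 1 in anagen and 76 and 48 in the KO (adjusted p = 0.00357), at least 13.6-fold higher than 3 UMIs over both telogen libraries. Its KO levels of 33.4 and 17.8 CPM overlapped the 27.9 and 19.6 CPM of telogen Cap-Kdr.

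Eng in Lymph-Cap stood at 213 and 218 CPM in telogen, 208 and 240 in anagen and 492 and 539 in the KO (1.2 ± 0.15, adjusted p = 0.000652). Bmpr2 stood at 125 and 151, 85.6 and 92.1, and 320 and 302 CPM (1.12 ± 0.16, adjusted p = 0.00139). These groups were far apart, and neither call was lost in any alternative. Id1, at 305 and 165 CPM in telogen and 547 and 439 in the KO, was called (1.0 ± 0.26, adjusted p = 0.0283) but not without telogen S2 (0.62, adjusted p = 0.136). Id3, at 502 and 354 against 1000 and 708 CPM (0.94 ± 0.22, adjusted p = 0.0199), was likewise not called without telogen S2 (0.69, adjusted p = 0.123) or when all 4 WT libraries were the reference (0.68, adjusted p = 0.0529). Acvrl1 (−0.17 ± 0.28), Id2 (0.70) and Tmem100 (−0.11) did not pass the test. By cluster, Eng was at 248 and 228 CPM in telogen and 538 and 637 in the KO in cluster 3. In cluster 10 it was at 172 and 202 in telogen, 204 and 248 in anagen and 317 and 221 in the KO, overlapping anagen. Id1 there was at 250 and 83.0 in telogen and 516 and 140 in the KO, overlapping. Bmpr2 there, at 119 and 123 against 178 and 168, was higher in the KO. Cluster 3 made up 68.4% and 75.6% of Lymph-Cap in telogen and 82.5% and 82.7% in the KO.

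Set against Cap-Kdr, the KO effect in Lymph-Cap differed for 6 of 9 members, where 12.7% of all genes were called, in a test chosen after the values had been seen. The KO effect in Cap-Kdr minus that in Lymph-Cap was −2.79 for Id3 (adjusted p = 1.657e-10), −2.62 for Id1 (7.971e-08), −2.32 for Eng (6.296e-09), −3.74 for Smad7 (3.725e-07) and −2.05 for Id2 (2.743e-05), and Smad6 was called as well.

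**Figure D3:**
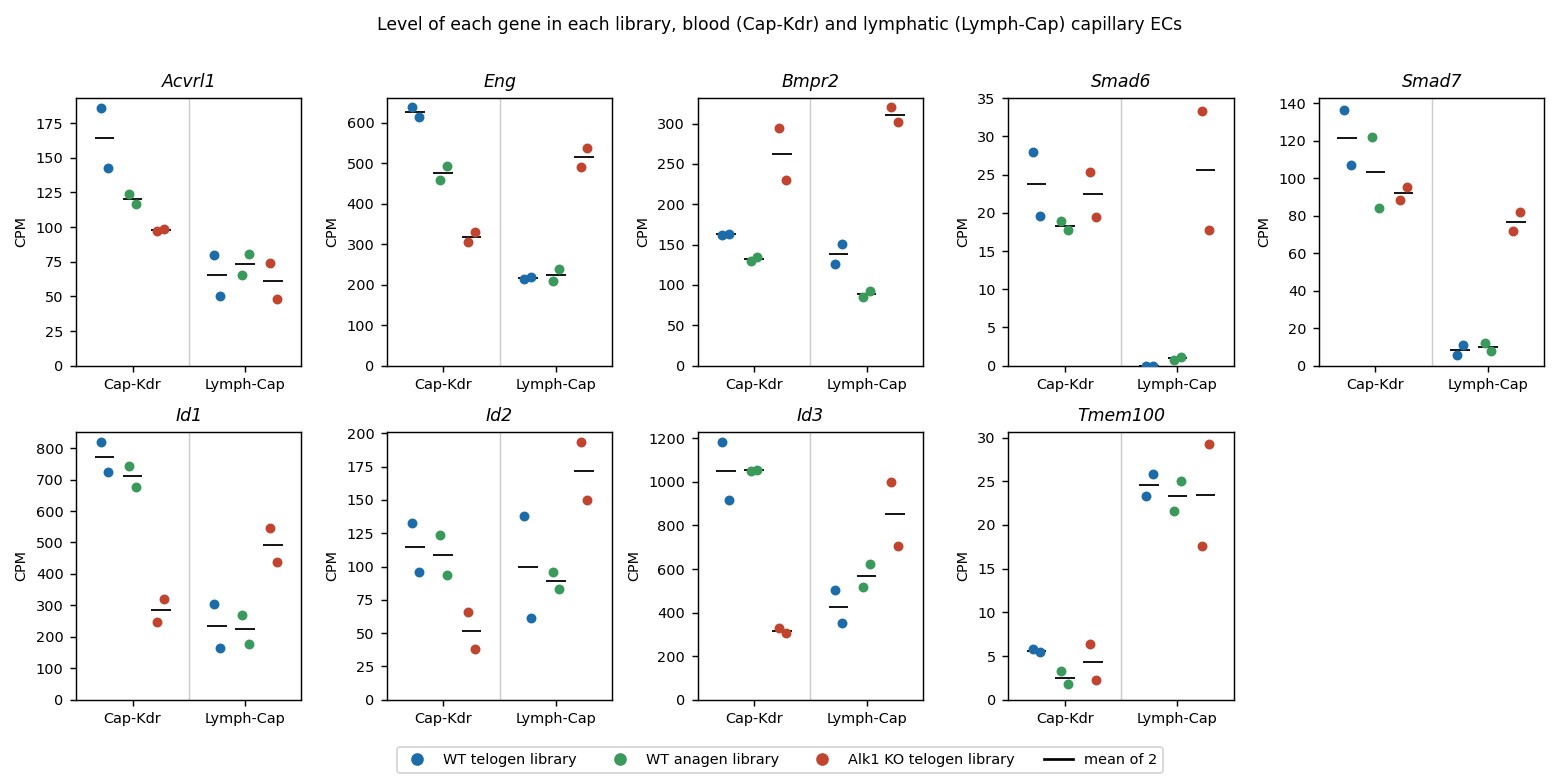
Level (CPM, 1 panel per gene) in each library of WT telogen, WT anagen and Alk1 KO telogen, for Cap-Kdr and Lymph-Cap. Points are libraries and each group has 2. Id1, Id3 and Eng of the KO lie below both WT groups in Cap-Kdr and above them in Lymph-Cap, and Bmpr2 of the KO lies above both WT groups in both.

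Smad6 was found in 0 of 305 telogen Lymph-Cap cells at 1500 UMIs, which allows a share of up to 0.984%, and in 21 of 847 KO cells, or 2.48% (95% exact binomial interval 1.54 to 3.77). In immune-like cells it was found in 1 of 2740 telogen cells (0.0365%) and 0 of 178 KO cells (up to 1.69%). Cells left out numbered 68 and 62 in Lymph-Cap, whose median depths were 3727 and 5271 UMIs. Without thinning the counts were 0 of 373 and 59 of 909 cells (6.49%).

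In the 59 KO Lymph-Cap cells with a Smad6 UMI, Prox1, the master regulator of lymphatic identity, was found in 78.9% and 90.5% in KO S1 and S2, against 78.6% and 80.5% of all KO Lymph-Cap cells. Lyve1, a hyaluronan receptor of lymphatic capillaries, was found in only 10.5% and 4.8% of them, against 61.6% and 65.0% of all KO Lymph-Cap cells. These cells were also deeper, with medians of 7613 and 7762 UMIs against 5271 over all KO Lymph-Cap cells.

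That led to a split of Lymph-Cap by a Lyve1 UMI, chosen after the values had been seen. Cells without one numbered 88 and 96 in telogen and 156 and 176 in the KO, and cells with one 105 and 84, and 250 and 327. Lyve1 itself stood at 1029 and 888 CPM in telogen Lymph-Cap and 1993 and 2246 in the KO. Cells without a Lyve1 UMI held a median of 3674 and 3346 UMIs in telogen and 5283.5 and 5334 in the KO. A missing Lyve1 UMI may therefore not mark like cells in both groups, and its part in the differences below was not tested. Among cells without Lyve1, 10.4% of all genes and 6 of 9 members were called in the KO, or 5 of 8 without Smad6, which passed the filter on low counts only through the KO libraries. Eng stood at 265 and 277 CPM in telogen, 208 and 272 in anagen and 912 and 1064 in the KO (1.85 ± 0.19, adjusted p = 2.74e-05), and Bmpr2 at 145 and 165, 95.1 and 80.3, and 492 and 480 (1.64, adjusted p = 0.000127). The split was prompted by the cells with a Smad6 UMI, so the Smad6 level within it is no separate result. Those KO cells also held Eng at 1382 and 1470 CPM, against 492 and 539 over all KO Lymph-Cap cells. Their Id1 was at 1096 and 703 CPM, against 547 and 439. The Eng and Id1 levels within the split are therefore no separate results either. Id1, at 342 and 125 against 802 and 738 CPM, was called (1.70, adjusted p = 0.00333), but not with DESeq2 (0.126) or stricter filters on cells (0.073).

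Among the cells with a Lyve1 UMI, 12.1% of all genes and 3 of 8 members were called by edgeR, while DESeq2 called 0 of the 8 (adjusted p = 0.0507 for Smad7, 0.212 for Bmpr2 and 0.0633 for Id3). Eng stood at 175 and 154 CPM in telogen, 208 and 195 in anagen and 225 and 258 in the KO (0.49 ± 0.18, adjusted p = 0.094), so it did not pass the test. Smad7 went from 3.84 and 2.84 CPM to 30.1 and 38.1 (3.21 ± 0.57, adjusted p = 0.00292), on 3 telogen UMIs against 109, a ratio of 10.1 with a counting interval of 3.35 to 49.5. Bmpr2 (0.71) was called but not without telogen S1 (adjusted p = 0.221) or telogen S2 (0.0709), and Id3 (0.78) was called but not without telogen S2 (0.316) or KO S1 (0.0744).

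The interaction of the Lyve1 split with the KO was called for 2 of 9 members, against 0.732% of all genes. Because KO cells of the same libraries prompted the split, these calls are descriptions and no separate support. The KO effect was larger without Lyve1 by 1.37 for Eng (adjusted p = 0.003685) and by 1.38 for Id1 (0.02126). Without telogen S2 these became 1.47 (0.0694) and 0.98 (0.296), and Id1 was also not called with stricter filters on cells (0.68, adjusted p = 0.587). Bmpr2 (0.94, adjusted p = 0.0846), Id3 (0.44, 0.392) and Smad7 (0.37, 0.96) were not called, so their effect was not shown to differ with Lyve1.

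**Figure D4:**
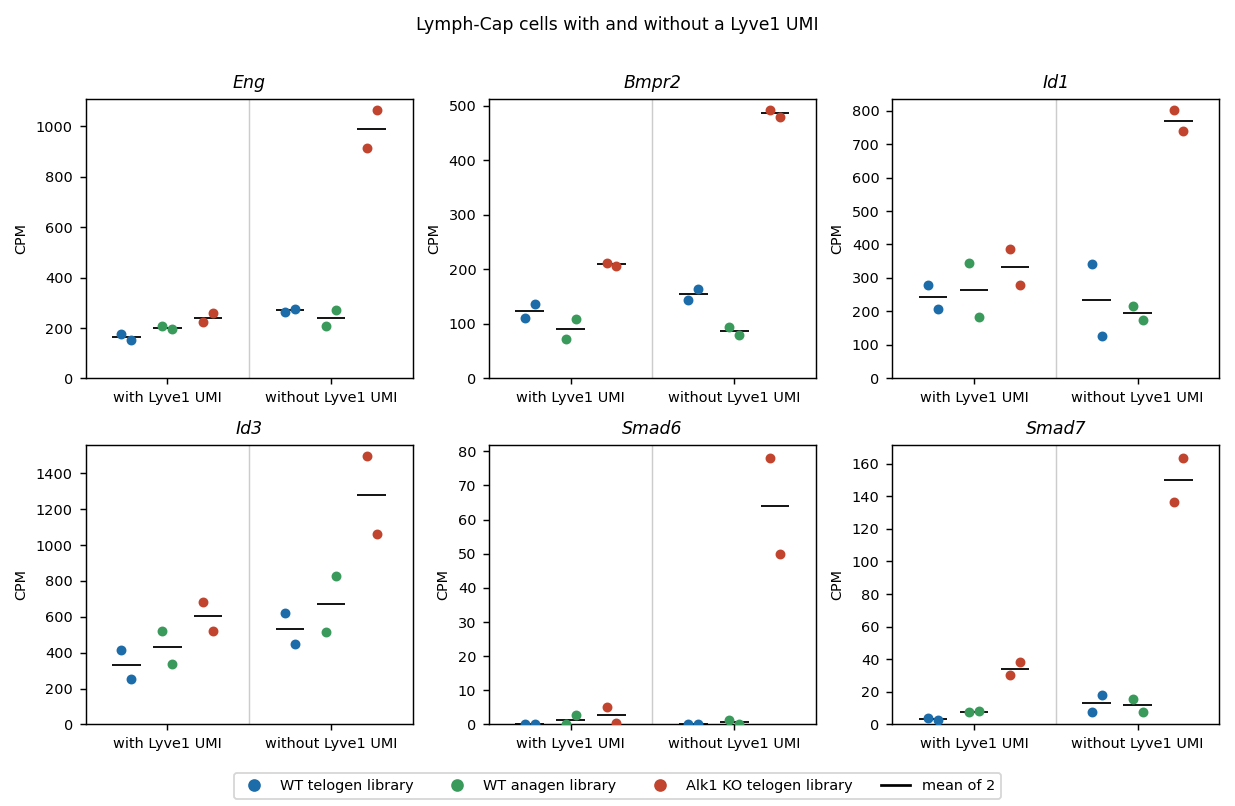
Level of 6 genes (CPM, 1 panel per gene) in Lymph-Cap cells with and without a Lyve1 UMI, per library, for WT telogen, WT anagen and the KO. Points are libraries. KO cells without Lyve1 hold the highest Eng, at 912 and 1064 CPM.

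Markers were set beside these values. In KO Lymph-Cap the summed level of 9 lymphatic genes was 8350 and 8445 CPM, above the 6108 and 7039 of telogen. The genes did not move alike. Lyve1 (1993 and 2246 against 1029 and 888), Reln (1106 and 1043 against 460 and 380) and Mmrn1 (2250 and 2326 against 1751 and 1541) were higher. Pdpn and Fxyd6 overlapped, and Nts was lower, at 389 and 309 against 461 and 1789. Prox1 stood at 479 and 573 against 475 and 553, while in KO Cap-Kdr it was at 25.3 and 10.3. The 13 Cap-Kdr markers summed to 2095 and 2412 CPM in KO Lymph-Cap against 1313 and 1489 in telogen and 1497 and 1537 in anagen. Among them Gpihbp1, the lipase anchor of capillary ECs, stood at 203 and 247 CPM in telogen and 698 and 868 in the KO. Nrp1, a VEGF coreceptor, stood at 3.33 and 10.9 against 5.71 and 3.70, with 239 and 249 in KO Cap-Kdr. In cells without a Lyve1 UMI, Cd300lg went from 44.7 and 78.4 CPM in telogen to 442 and 283 in the KO. These cells also had the larger Eng difference. Btnl9 went from 42.05 and 62.75 to 156 and 246 in them, and Cxcl12, Kdr, Gpihbp1, Cd36 and Mgll were also higher. Col4a2 was lower, at 41.8 and 80.7 against 129 and 102 in telogen. Col4a1, Rbp7 and Tcf15 overlapped, and Nrp1 and Col15a1 stayed low. The part of blood capillary RNA in the result was not tested beyond these values.

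Lymph-Col, the collecting lymphatics, had 17.2% of all genes and 2 of 8 members called. Id3 stood at 418 and 303 CPM in telogen, 463 and 364 in anagen and 896 and 679 in the KO (1.05 ± 0.18, adjusted p = 0.00262), and the call was kept in every alternative. Within its clusters the KO values were 1257 and 839 against 418 and 296 in cluster 5, and 725 and 444 against 515 and 347 in cluster 6, where the groups overlapped. Smad7 stood at 16.9 and 8.72 against 35 and 27.5 CPM (1.2 ± 0.34, adjusted p = 0.0309), a call lost without telogen S2 (0.81, adjusted p = 0.211). Smad6 had 0 UMIs in all 4 WT libraries and 1 and 3 in the KO, a total at least 1.67-fold higher than the floor.

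Tested after the values had been seen, the KO effect was larger in Lymph-Cap than in Lymph-Col for 5 of 9 members, against 3.50% of all genes: Smad7 by 2.03, Id2 by 0.97, Eng by 0.88, Bmpr2 by 0.77 and Id1 by 0.72. Each of these was lost on leaving out some library. Without telogen S1 the adjusted p was 0.666 for Smad7, 0.157 for Eng, 0.418 for Id1 and 0.0516 for Bmpr2. Without telogen S2 it was 0.309 for Id2 and 0.288 for Bmpr2, without KO S1 it was 0.0992 for Id2 and 0.15 for Bmpr2, and without KO S2 it was 0.32 for Id1.

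**Figure D5:**
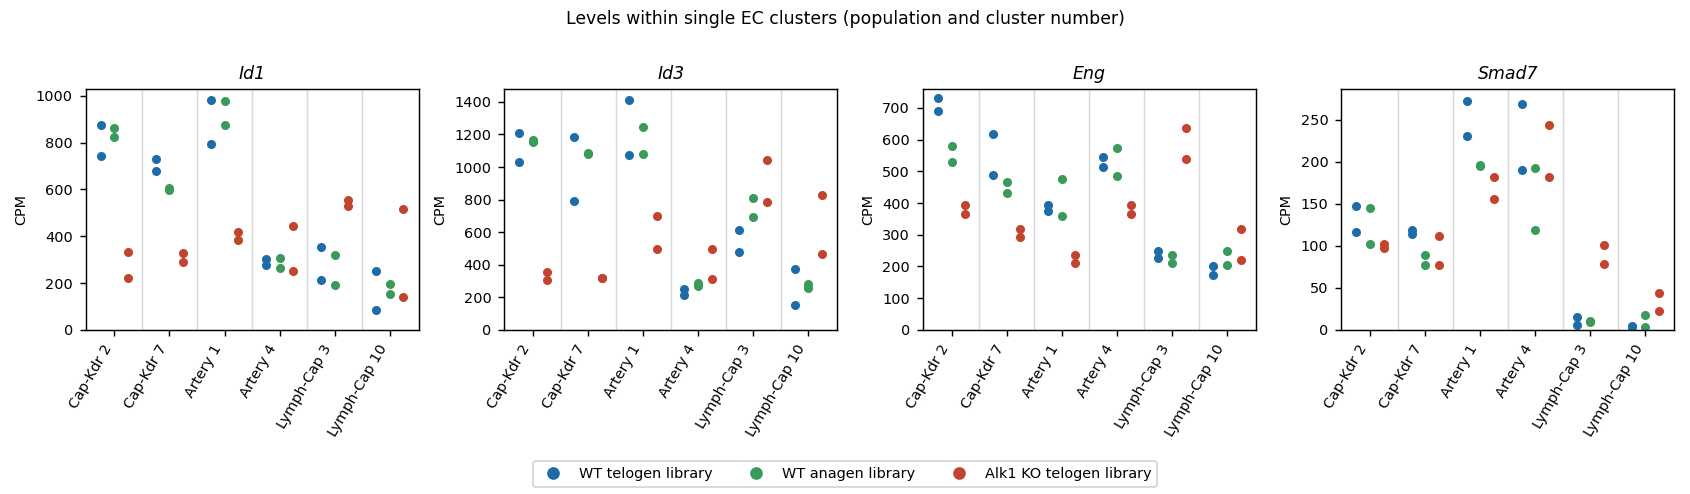
Level of Id1, Id3, Eng and Smad7 (CPM) per library within clusters of Cap-Kdr (2, 7), Artery (1, 4) and Lymph-Cap (3, 10), for WT telogen, WT anagen and the KO. Points are libraries. In both Cap-Kdr clusters Id1 and Id3 of the KO lie below every WT library, in Artery they do so in cluster 1 alone, and Eng in Lymph-Cap is highest in the KO of cluster 3, at 538 and 637 CPM.

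The Cdh5+/Krt19+ cells of the KO numbered 88 and 64, with 20.1% of all genes and 3 of 8 members called. Id2 was higher, at 56.7 and 63.1 CPM against 17.7 and 16.8 in telogen (1.70 ± 0.33, adjusted p = 0.00439), and did not pass with likely doublets removed (1.03, adjusted p = 0.27) or with all 4 WT libraries as the reference (0.87, adjusted p = 0.31), where anagen stood at 48.4 and 36.3. Id3 was at 1030 and 1540 against 773 and 708 CPM, overlapping anagen (0.69 ± 0.22, adjusted p = 0.0445). Tmem100 was lower, at 23.9 and 57.8 against 80.5 and 79.6 (−1.20 ± 0.33, adjusted p = 0.025). Without telogen S1 or telogen S2 the adjusted p was 0.336 or 0.433 for Id3 and 0.072 or 0.08 for Tmem100, and without KO S1 it was 0.236 for Tmem100.

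Marker levels in these cells differed between groups too. Muscle genes summed to 4123 and 499 CPM in KO S1 and S2 against 172 and 209 in telogen, fibroblast genes to 1045 and 851 against 5929 and 6200, and pericyte genes to 1397 and 741 against 471 and 525, and the part of these in the result was not tested. The KO effect differed from that in blood ECs for Id3 (−1.38, adjusted p = 4.005e-07) and Id2 (−2.09, adjusted p = 6.424e-05) of 9 members, where 8.13% of all genes were called, and the call of Id2 was lost with likely doublets removed (−1.57, adjusted p = 0.101).

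Outside ECs and Cdh5+/Krt19+ cells the populations of the KO were small. Pericyte-like cells had 5.70% of all genes and 1 of 8 members called, Eng, at 231 and 224 CPM against 40.5 and 107 (−1.79 ± 0.39, adjusted p = 0.0405), with anagen at 249 and 100 overlapping the KO. Fibroblast-like cells, 34 and 59 in the KO, had 38.2% of all genes and 7 of 8 members called, among them Id1 at 23.8 and 10.4 against 124 and 198 CPM (2.94 ± 0.40, adjusted p = 0.00155) and Eng at 32.8 and 32.6 against 6.52 and 8.07 (−2.46 ± 0.44, adjusted p = 0.00435). In the same cells the summed fibroblast markers went from 86052 and 75997 CPM to 10252 and 6954, so the cells so named were not alike in both groups. Immune-like cells had 6.4% of all genes called and no member by edgeR (4 of 7 had an unadjusted p under 0.05, and DESeq2 called 4).

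The rest of the pathway was followed through lists of other members. In KO Cap-Kdr, 4 of 6 other receptors tested were higher and none lower: Tgfbr2 (1.24), Tgfbr3 (1.19), Tgfbr1 (1.09) and Acvr2b (1.51), which encode receptors of TGF-β, their coreceptor and an activin receptor. Smad1, a transducer of BMP signals, was the only 1 of 4 other Smads called there (1.84 ± 0.20, adjusted p = 2.72e-05). Of 2 BMP ligands tested Bmp6 was higher (0.95 ± 0.34, adjusted p = 0.0457). Among 5 other targets Bambi, a decoy receptor, was lower (−1.17 ± 0.22, adjusted p = 0.00115) and Hes1, a transcriptional repressor, was higher (0.61).

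Of 5 endothelial genes that Alk1 is known to restrain, 2 were higher and 2 lower in KO Cap-Kdr. Cxcr4, a chemokine receptor (3.40 ± 0.25, adjusted p = 1.3e-06), and Pgf, a VEGF family ligand (2.32, adjusted p = 0.000539), were higher. Esm1 (−3.08, adjusted p = 2.96e-05) and Apln (−1.99, adjusted p = 0.00421), both genes of sprouting ECs, were lower. The list's name thus covers genes that moved both ways. Cxcr4, Pgf and Apln were among the leading genes of cluster 13 of Cap-Kdr. That cluster made up 4.14% and 8.24% of Cap-Kdr cells in telogen and 10.9% and 14.9% in the KO. The part of this share in the differences was not tested.

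In blood ECs as a whole the receptors were again Tgfbr2 (0.98), Tgfbr3 (0.91), Tgfbr1 (0.82) and Acvr2b (0.81), 4 of 8 tested, and Smad1 was higher (1.21). Bmp2 (0.87) and Bmp4 (0.91) were higher, 2 of 3 ligands, and of 7 other targets Hes1 was higher (0.71) and Msx1 lower (−0.99). Cxcr4 (3.09) and Pgf (3.15) were higher, and Esm1 (−2.93) and Apln (−1.10) lower.

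The single populations differed in which of these genes passed. In Artery Tgfbr2 (1.14), Tgfbr3 (0.94), Smad1 (1.31), Hes1 (0.89) and Pgf (2.97) were higher and Msx1 (−0.93) lower. In Vein Bmp4 (1.26), Smad1 (0.82) and Tgfbr3 (0.77) were higher. In Cap-Rgcc Bmp2 (2.13), Bmp6 (1.66), Tgfbr2 (0.74), Hes1 (0.98), Cxcr4 (4.16) and Pgf (4.78) were higher and Hey1 (−1.63), a Notch target, lower.

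In KO Lymph-Cap 1 of 7 other receptors tested was called, Tgfbr2, which was lower (−0.80 ± 0.16, adjusted p = 0.00829). Of 4 other targets 2 were higher, the transcription factors Hey1 (1.73 ± 0.24, adjusted p = 0.00139) and Atoh8 (1.76 ± 0.51, adjusted p = 0.0455). Pgf was lower (−2.53 ± 0.34, adjusted p = 0.00123). The KO effect in Cap-Kdr minus that in Lymph-Cap was 2.06 for Tgfbr2 (adjusted p = 1.05e-06), 2.0 for Smad1 (2.96e-07), 4.94 for Pgf (2.29e-07) and −2.12 for Hey1 (0.00042).

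Lymphatic ECs as a whole had Hey1 (1.73) and Atoh8 (2.67) higher, and Id4 (−1.75), Msx1 (−3.89), Smad5 (−0.51) and Pgf (−1.75) lower. Lymph-Col had 1 call in these lists, Bmp4, which was lower (−1.62). In Cdh5+/Krt19+ cells Tgfbr3 (1.02), Hes1 (1.34) and Cxcr4 (3.39) were higher, in pericyte-like cells Pgf (2.57) and Hey2 (2.42), and in immune-like cells Cxcr4 (1.43) and Hes1 (3.33). In fibroblast-like cells, whose markers were lower, Bmp4, Tgfbr1, Acvr2b, Tgfbr3, Smad4, Id4 and Hes1 were higher and Bmp2, Smad1 and Pgf lower. In anagen edgeR called none of the genes of these 5 lists in any of 12 populations (32 of 261 tests had an unadjusted p under 0.05).

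Dissociation of tissue is known to induce immediate-early and heat-shock genes, and 11 of these were followed as a sign of handling. In the KO 5 were lower and none higher in Cap-Kdr (Fosb, Ier2, Atf3, Hspa1a and Dnajb1), 5 were higher and none lower in Cap-Rgcc, and 3 were higher (Fos, Egr1 and Ier2) and 4 lower (Atf3, Hspa1a, Hspa1b and Dnajb1) in Lymph-Cap. They therefore moved with the Id genes in part. In the test of Cap-Kdr against Lymph-Cap the difference was −1.27 for Fos (adjusted p = 2.2e-07), −1.31 for Egr1 (1.15e-06) and −1.57 for Ier2 (5.52e-07), beside −2.62 for Id1 and −2.79 for Id3, and against Cap-Rgcc it was −1.53 for Fos and −1.77 for Egr1, beside −1.64 for Id3. In blood ECs as a whole Egr1 was higher (0.52) and Hspa1a lower (−0.89), with the other 9 not called. The part of handling in the Id results was not tested.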

How the data were processed

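The deposited files hold raw UMI counts per gene and barcode for 6 libraries of tdTomato+ cells sorted from mouse dorsal skin. The authors counted them with Cell Ranger 6.0.1 (reference mm10) from Chromium 3′ libraries, without normalization or pooling, and their later Seurat 4.0 steps were not used. Groups were taken from the sample titles. Gene positions came from GENCODE and promoter windows from RefSeq, both of GRCm38, which is mm10.

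After the filter on genes and mitochondrial UMIs, 30 principal components of 3000 variable genes (55 member and pathway genes set aside) were corrected between libraries by Harmony and clustered by Leiden at a resolution of 0.6, all cells together and then ECs alone. Clusters took a name from 3 or more markers of a type, each 2-fold higher than elsewhere and detected in 25% of the cells. Reported values include likely doublets. One alternative removed them by Scrublet score: 51 cells of telogen S2 by the automatic threshold and 92 to 260 cells elsewhere, where that threshold marked under 0.5%.

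UMIs were summed per library and population. Tests were run where every library compared had at least 10 cells, which left out Schwann-like cells. Levels of Schwann-like cells are descriptions that rest on 10 and 8 cells in anagen S1 and S2. edgeR's quasi-likelihood F test followed filterByExpr and TMM, and p-values were adjusted over all genes tested by Benjamini-Hochberg. Every adjusted p in the text comes from this test unless DESeq2 is named, and a p in brackets after a difference or a left-out library is an adjusted p. A call meant adjusted p under 0.05 with a fold above 1.3, or for interactions adjusted p under 0.05 alone. With 2 mice per group no exact permutation test can reach 0.05. A gene at 0 in a group is given as a bound from 3 UMIs over that group. Shares of cells were counted after thinning to 1500 UMIs, and the limit for a share of 0 is 3 cells. Library depth was 10615358 to 43317677 UMIs, so low genes such as Smad6 and Smad9 are measured least precisely. Scripts were tested on simulated data.

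The genes named are the 10 members, the genes called among fixed pathway lists, with the immediate-early and heat-shock genes given mostly as counts, and the 5 genes of most similar level to Acvrl1 and to Id1. The members, the lists and the marker genes were chosen with earlier results of these data known. Alternatives were stricter cell filters (500 genes, 5% mitochondrial UMIs), removal of likely doublets, a resolution of 1.2, DESeq2 size factors in edgeR, no filter on low counts, DESeq2, the replicate number as a block, all 6 libraries in one fit, 4 WT libraries as the reference, and leaving out each library. Same-numbered libraries did not deviate together (correlations of −0.0952 to 0.0303 over genes), so the numbers were not treated as pairs. The work was done in R 4.3.3 (edgeR 4.0.16, DESeq2 1.42.0) and Python 3.11.15 (scanpy 1.11.5, leidenalg 0.10.2, igraph 0.11.9, scikit-learn 1.9.0, scipy 1.17.1, numpy 2.4.6, pandas 2.3.3, matplotlib 3.10.9).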

Additional observations from a re-analysis of the deposited data

Results flagged for a closer look

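The results that follow were picked out because a test of the difference between populations in their response to the KO was passed. Values are the log2 KO effect of the population named last taken from that of the population named before it, and all share the WT telogen libraries.

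For blood ECs minus lymphatic ECs, the difference was −2.03 for Eng (adjusted p = 7.526e-07), −1.81 for Id1 (0.0001739), −0.83 for Id2 (0.003093), −1.96 for Id3 (1.35e-06), −2.45 for Smad7 (1.734e-06) and −1.36 for Tmem100 (0.003394). Smad6 had a fitted value of −8.30 (2.925e-05), which depends on the prior count because telogen lymphatic ECs held no Smad6 UMI. For blood ECs minus Cdh5+/Krt19+ cells it was −2.09 for Id2 (6.424e-05) and −1.38 for Id3 (4.005e-07).

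For Cap-Kdr minus Lymph-Cap, chosen like the next ones after the data had been seen, the difference was −2.32 for Eng (6.296e-09), −2.62 for Id1 (7.971e-08), −2.05 for Id2 (2.743e-05), −2.79 for Id3 (1.657e-10) and −3.74 for Smad7 (3.725e-07), with a fitted −8.23 for Smad6 (7.714e-05) of the same dependence. For Cap-Kdr minus Cap-Rgcc it was −1.03 for Eng (0.01767), −1.54 for Id2 (0.03404), −1.64 for Id3 (0.0007095) and −1.26 for Smad7 (0.01298). For Cap-Kdr minus Artery it was −0.76 for Acvrl1 (0.03093), −0.96 for Id1 (0.004692) and −1.37 for Id3 (2.246e-05).

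For Lymph-Cap minus Lymph-Col the difference was 0.77 for Bmpr2 (0.007729), 0.88 for Eng (0.001088), 0.72 for Id1 (0.00946), 0.97 for Id2 (0.002126) and 2.03 for Smad7 (0.003559). For Lymph-Cap cells without minus with a Lyve1 UMI it was 1.37 for Eng (0.003685) and 1.38 for Id1 (0.02126). That split was prompted by KO cells of the same data, so these 2 values are descriptions.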

How the results depend on the processing

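No member call changed direction under any alternative run, and no member not called in the reported fit was called in the opposite direction. Differences called in neither fit were not checked for direction. Of 56 member calls in the comparisons planned, 25 were kept in every alternative and 31 were lost in at least 1. The alternatives named beside a single call in the Results are not always all of those that ended it. The counts of members called in blood ECs (6), in lymphatic ECs (6) and in the test between them (7) stayed within 1.5 times under every alternative. The other counts changed as follows, and the cause was not tested. With likely doublets removed, the KO count in Cdh5+/Krt19+ cells went from 3 to 0, the anagen count there from 3 to 1 and the test of blood ECs against Cdh5+/Krt19+ cells from 2 to 1. With 4 WT libraries as the reference the KO count in Cdh5+/Krt19+ cells was 1. With stricter cell filters the anagen count there was 0. Without a filter on low counts it was 6, the KO count in the other non-endothelial populations went from 8 to 13 and the anagen count there from 0 to 5. DESeq2 gave 2 for the last.

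Leaving out each library gave ranges of 1 to 5 (KO, Cdh5+/Krt19+ cells), 12 to 24 (KO, single EC populations, 21 with all libraries), 4 to 13 (KO, non-endothelial populations), 0 to 2 (anagen, lymphatic ECs), 0 to 5 (anagen, Cdh5+/Krt19+ cells), 0 to 3 (anagen, single EC populations), 0 to 4 (anagen, non-endothelial populations) and 2 to 3 (blood ECs against Cdh5+/Krt19+ cells). With the replicate block the anagen count in Cdh5+/Krt19+ cells was 6, and the KO counts were 7 in blood ECs, 6 in lymphatic ECs, 2 in Cdh5+/Krt19+ cells and 23 in single EC populations. The numbers do not pair the libraries, and the calls of Id3 in Cdh5+/Krt19+ cells (adjusted p = 0.0542), Eng in Vein (0.0516) and Eng in pericyte-like cells (0.087) were lost in that fit. DESeq2 gave no adjusted p for 80 values, which were left out. Depth limits Smad6, Smad9 and Tmem100 most.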

Other observations

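Detection of the Id genes in the same cell was counted after thinning to 1500 UMIs. At least 1 of Id1, Id2 and Id3 was found in 60.5% and 57.5% of blood ECs in telogen S1 and S2, 62.5% and 50.4% in anagen and 37.2% and 41.8% in the KO. In lymphatic ECs these shares were 55.4% and 45.1%, 53.7% and 45.4%, and 56.4% and 51.1%, so that the groups lay close together, whereas all 3 Id genes were found together in 2.0% and 1.52%, 2.17% and 1.83%, and 6.73% and 4.61% of the cells. No test was made of these shares.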
